A study of Mus musculus with 6 samples.

Results

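The Schwann lineage transcription factor genes Sox10, Egr2, Pou3f1, Sox2, Id2 and Id4, and the glial calcium-binding protein gene S100b, were read from single-cell counts of sciatic nerve. These 7 genes were chosen by name from the 32285 genes of the deposited table, and each had at least 1 UMI (a distinct counted RNA molecule). Cells came from nerves of 23-week-old C57BL6/J mice on diet SD (standard diet) or HFD (high fat diet), with no genetic change named. Magnetic beads against O4, a surface lipid of myelinating glia, had been used to enrich Schwann cells, and libraries were made with 10x Genomics 3′ chemistry. The cells analysed numbered 364 in 3 SD and 2 HFD libraries, and the third HFD sample was not analysed here. Nothing in the labels ties a library to a separate animal, so the spread between libraries may be technical.

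Schwann cells arise from neural crest and pass through precursor and immature stages before they either wrap one axon in myelin or ensheathe several small axons. Sox10 is needed throughout the lineage, Pou3f1 (also called Oct6) marks the promyelinating stage, and Egr2 (also called Krox20) drives and maintains myelin gene expression. Sox2, Id2 and Id4 are associated with immature cells and with restraint of myelination, and S100b is a classic protein marker of Schwann cells. Egr2 and Id2 are also known from myeloid cells.

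The authors' annotation put the 364 cells in classes named SCP, mySC, Macrophages, nmSC and repairSC. The sources used here do not spell these names out, and they are used as names only. SCP held 60 cells with a median of 4230 UMIs per cell, mySC 92 cells with 626.5, and Macrophages 143 cells with 1064. Libraries held 37744 to 349450 UMIs. The labelled cell type, Schwann cells, was visible in SCP and mySC: a list of 15 genes of myelinating Schwann cells made up a median of 5.48% of the UMIs of an SCP cell and 4.16% of those of a mySC cell. In the 24 nmSC cells the median was 0.00626%, and in the 45 repairSC cells and in macrophages 0%. Of the 15 genes, 2 had any UMI in nmSC, 2 in repairSC and 9 in macrophages. Macrophages carried all 15 genes of a macrophage marker list.

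The mySC class was mixed. In it, 13 of 92 cells had at least 1% of their UMIs in macrophage, neutrophil, mast cell or haemoglobin markers, and these 13 held 115585 of the class's 181249 UMIs (63.8%). They held 92.6% of the mySC UMIs in HFD replicate 1, 77.7% in HFD replicate 2, 42.0% in SD replicate 1 and 0% in SD replicates 2 and 3. No SCP cell passed that level. Of the 92 mySC barcodes, 7 lay within 2 bases of a deeper barcode of the same library, and the deeper barcode of 5 of them was an SCP cell. Outside repairSC, 0 barcodes lay that close to one of another library. Levels in mySC are therefore given for all 92 cells and, where they moved, for the other 79.

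Sox10, the transcription factor on which the whole lineage depends, was counted only in SCP and mySC among the 5 classes. The limits in the other classes are given further below. All 114 of its UMIs were in SCP (98 UMIs) or mySC (16 UMIs). Its GENCODE gene model lies at chr15:79154908-79165240 (GRCm38, minus strand) and overlaps no other gene. In SCP its level in CPM (UMIs of the gene per 1000000 UMIs of the class in that library) was 320.3, 429 and 627 in SD replicates 1 to 3 and 668 and 334 in HFD replicates 1 and 2. The 5 libraries lay between 320.3 and 668 with no library apart from the others, and the mean was 476 ± 163 CPM (standard deviation, n = 5 libraries, as for all values after ± below unless named otherwise). A Sox10 UMI was counted in 38 of 60 SCP cells, or 63.3% (exact 95% Clopper-Pearson interval 49.9 to 75.4%, counting error only). In mySC the level was 92.2, 177 and 967 CPM on SD and 0 and 114 on HFD. The value of 967 in SD replicate 3 was 3 UMIs in 1 cell, so the mySC mean of 270.0 ± 395 rests on that library. In the 79 cells the levels were 119, 177 and 967 CPM on SD and 0 and 512 on HFD, a mean of 355 ± 391.

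Pou3f1, the POU factor of promyelinating cells, was concentrated in SCP, which held 156 of its 167 UMIs. The gene lies at chr4:124656807-124660655 (plus strand), with the antisense model Gm2164 inside the same span. Its SCP level was 231, 592 and 627 CPM on SD and 2271 and 714 on HFD, a mean of 887 ± 795. The high value of HFD replicate 1 came from 3 cells, of which 1 held 28 of the 34 UMIs. In the same class 34 of 60 cells (56.7%, interval 43.2 to 69.4%) had a UMI. In mySC there were 10 UMIs in 8 of 92 cells (8.70%), at 23.1, 221 and 967 CPM on SD and 0 and 22.8 on HFD, a mean of 247 ± 413. Of those 10 UMIs, 3 lay on 2 of the barcodes close to a deeper one, and without such barcodes the mySC mean was 54.0 CPM. In the 79 cells the levels were 39.8, 221 and 967 CPM on SD and 0 and 102 on HFD, a mean of 266 ± 401.

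Egr2, the zinc finger factor of the myelinating stage, was found in both Schwann classes and in macrophages. It lies at chr10:67535475-67542188 (GRCm38, plus strand) and overlaps no other gene. In SCP its level was 231, 388 and 0 CPM on SD and 401 and 380.0 on HFD, a mean of 280 ± 171. SD replicate 3 stood apart with 0 UMIs among 20744, where 3 UMIs would have been 145 CPM, and the other 4 libraries lay between 231 and 401. An Egr2 UMI was counted in 29 of 60 SCP cells (48.3%, interval 35.2 to 61.6%). In mySC the level was 161, 133 and 0 CPM on SD and 103 and 45.6 on HFD, a mean of 88.4 ± 65.4, from 19 UMIs in 10 of 92 cells. Of those 19 UMIs, 10 (52.6%), in 4 cells, were in the 13 cells with markers of other types. The remaining 79 mySC cells held 9 Egr2 UMIs, and their mean over libraries was 131 ± 82.7 CPM.

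Because Egr2 was counted in both the Schwann cells and the macrophages, a promoter window of it is shown. RefSeq (GRCm38.p6) promoter windows matched 5 of the 7 genes, and Egr2 had 5 windows. The one printed holds no annotated exon base and the most motif matches of those that do not. It is chr10:67537619-67537868 on the plus strand, 250 bases ending just before the start site and inside the span of the longer GENCODE model.
Egr2: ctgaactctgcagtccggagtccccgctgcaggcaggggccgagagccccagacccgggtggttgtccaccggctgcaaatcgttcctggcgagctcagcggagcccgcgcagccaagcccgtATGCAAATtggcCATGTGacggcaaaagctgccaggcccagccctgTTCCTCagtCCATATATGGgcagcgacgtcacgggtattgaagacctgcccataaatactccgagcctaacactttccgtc
The capitals mark, from 5′ to 3′, an octamer ATGCAAAT (the POU factor motif, bases -127 to -120 from the start), an E-box CANNTG (the bHLH motif, -115 to -110), an ETS motif GAGGAA on the reverse strand (-81 to -76) and a CArG box (the serum response factor motif, -72 to -63). No 2 of them overlap. Both strands of 32851 RefSeq windows of the same length were searched: 1.60% held the octamer, 1.47% a CArG box, 23.3% the ETS motif and 66.2% an E-box. The SOX motif ACAAAG (16.5% of windows) and the CRE TGACGTCA (1.55%) were not among the letters of this window. These matches are descriptions of the letters and not measured binding sites.

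S100b, which encodes a secreted and cytosolic calcium-binding protein, showed the opposite order between the Schwann classes from Sox10, Pou3f1 and Egr2. It lies at chr10:76253853-76261159 (plus strand) and shares part of its span with Dip2a on the other strand. In mySC its level was 830.0, 1812 and 2901 CPM on SD and 58.6 and 342 on HFD, a mean of 1189 ± 1167. In SCP it was 243, 286 and 0 CPM on SD and 66.8 and 288 on HFD, a mean of 177 ± 134. The level was higher in mySC in 4 of 5 libraries, and HFD replicate 1 was the exception. None of the 105 mySC UMIs of S100b was in the 13 cells with other types' markers, and over the remaining 79 cells the mean was 1695 ± 770.1 CPM, with 796 in HFD replicate 1. The share of cells with a UMI, before the difference in depth is removed, was 45.0% of SCP (27 of 60, interval 32.1 to 58.4%) and 38.0% of mySC (35 of 92, interval 28.1 to 48.8%). The single RefSeq window of S100b, chr10:76253586-76253835 on the plus strand with no annotated exon base, is printed beside that of Egr2 for the contrast between the 2 genes.
S100b: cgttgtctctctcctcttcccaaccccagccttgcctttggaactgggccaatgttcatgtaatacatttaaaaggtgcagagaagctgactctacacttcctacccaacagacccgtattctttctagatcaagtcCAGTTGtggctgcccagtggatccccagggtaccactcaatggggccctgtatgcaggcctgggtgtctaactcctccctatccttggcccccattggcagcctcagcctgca
Of the 6 motifs it holds an E-box alone, in capitals, at -113 to -108 from the start.

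Sox2, Id2 and Id4, the genes of immature cells, were rare in both Schwann classes. Sox2, a pluripotency and precursor factor, had 10 UMIs in all: 9 in 3 SCP cells (5.00%) and 1 in a mySC barcode close to a deeper one. Of those 9, 6 were in 1 cell of HFD replicate 1. The long noncoding gene Sox2ot runs on the same strand through the Sox2 locus (chr3:34650405-34652461), so counts of the 2 are not independent of the gene model. Sox2ot had 91 UMIs in 32 of 60 SCP cells, at 280 ± 193 CPM, 10 UMIs in mySC and 0 in macrophages. Id4, a helix-loop-helix inhibitor (chr13:48261228-48266026, overlapped by antisense models), had 20 UMIs in 7 SCP cells at 64.1, 184, 0, 0 and 69.1 CPM in SD replicates 1 to 3 and HFD replicates 1 and 2. The 184 of SD replicate 2 was a single cell with 9 UMIs. Id4 had 3 UMIs in mySC, at a mean of 16.4 CPM over all cells and 56.6 in the 79.

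Id2, the related inhibitor (chr12:25093799-25097140), had 14 UMIs in 7 SCP cells, at 12.8, 0 and 48.2 CPM on SD and 134 and 115 on HFD. All 3 of its mySC UMIs were in 2 of the cells with markers of other types, and the remaining 79 mySC cells held 0. Each of the 7 SCP cells with Id2 also had Sox10 and Pou3f1. The plot of levels by class and library shows these patterns together.

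**Figure D1:**
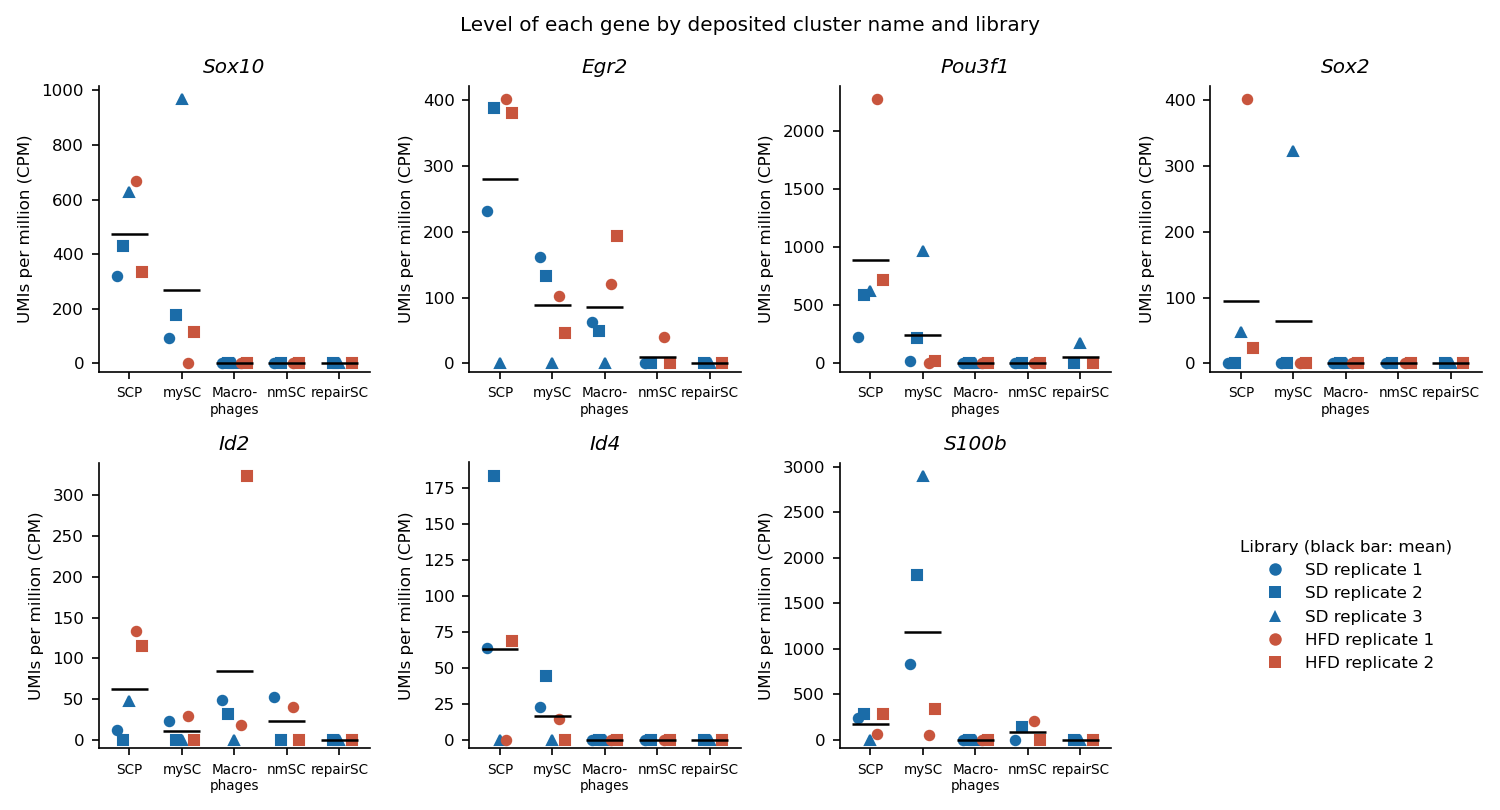
Level of each of the 7 genes (vertical axes, CPM, a separate scale for each gene) in each deposited class (horizontal axes) and library; points are libraries with at least 3 cells of the class, colours the diets, shapes the replicate numbers, and black bars the means. Sox10, Pou3f1 and S100b have no UMI in macrophages, where Egr2 and Id2 do, and the high mySC points of Sox10, Pou3f1, Sox2 and S100b are SD replicate 3, with 7 mySC cells.

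Sox10, Egr2 and Pou3f1 were each higher in SCP than in mySC in 4 of 5 libraries. Egr2 was equal, at 0 in both, in the fifth library, SD replicate 3, and for the others that library was the one with mySC higher. In the 79 mySC cells without other types' markers the counts for Egr2 and Pou3f1 were again 4 of 5, but Sox10 was higher in SCP in 3 of 5, since HFD replicate 2 then had 512 CPM in mySC and 334 in SCP. SCP cells were deeper, so each cell was thinned to 500 UMIs, which kept 58 of 60 SCP, 59 of 92 mySC and 115 of 143 macrophage cells. At that depth Sox10 would be counted in 17.4% of SCP and 7.83% of mySC cells. Pou3f1 came to 21.3% and 3.05%, and Egr2 to 11.9% and 4.45%. For S100b the shares were 10.2% and 36.2%, in the order of its CPM. Of the 79 mySC cells 46 had that depth, with shares of 8.86% for Sox10, 3.91% for Pou3f1, 4.85% for Egr2 and 46.5% for S100b. For the 3 factors the order at equal depth was also that of the CPM. The classes were made from these genes among others, so no test was run between them, and 3 libraries held 3 to 10 SCP cells.

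**Figure D2:**
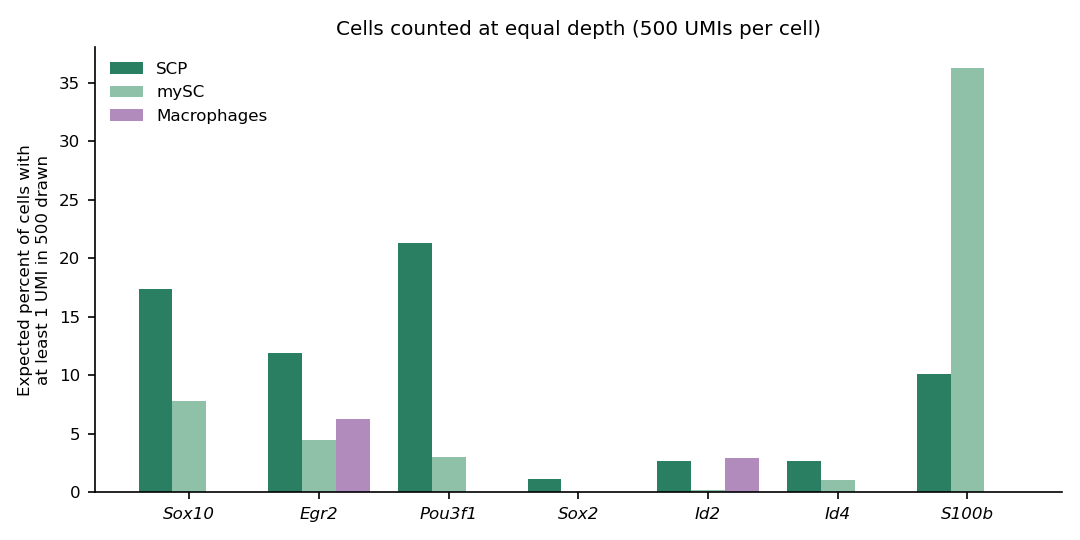
Expected percent of cells with at least 1 UMI of each gene when every cell is thinned to 500 UMIs (vertical axis from 0), in 58 SCP, 59 mySC and 115 macrophage cells (bars). Sox10, Egr2 and Pou3f1 are highest in SCP, and S100b is highest in mySC at 36.2%.

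Levels were also taken relative to the myelin genes of the same cells, which leaves haemoglobin and immune genes out of the base. Relative to the summed UMIs of 15 myelin genes, S100b stood at 4.34 UMIs per 1000 in SCP and 28.2 in mySC. By library, mySC had 27.9, 31.9 and 41.9 on SD and 7.12 and 40.7 on HFD. The SCP values were 4.48, 5.48 and 0 on SD and 1.87 and 5.09 on HFD, below mySC in all 5 libraries. Pou3f1 went the other way, with 11.5 per 1000 in SCP and 2.69 in mySC. For Egr2 the values were 5.60 in SCP and 5.10 in mySC, with 2 libraries higher in each class. In the 79 mySC cells Egr2 stood at 2.46, and it was then higher in SCP in 4 libraries and at 0 in both classes in SD replicate 3. The mySC value fell by library from 5.43 to 2.41 in SD replicate 1 and from 12.5 to 1.81 in HFD replicate 1, where 4 and 6 of 7 Egr2 UMIs were in the cells with other types' markers. Sox10 stood at 7.22 and 4.30, and was higher in mySC in SD replicate 3 and HFD replicate 2, with or without those cells.

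**Figure D3:**
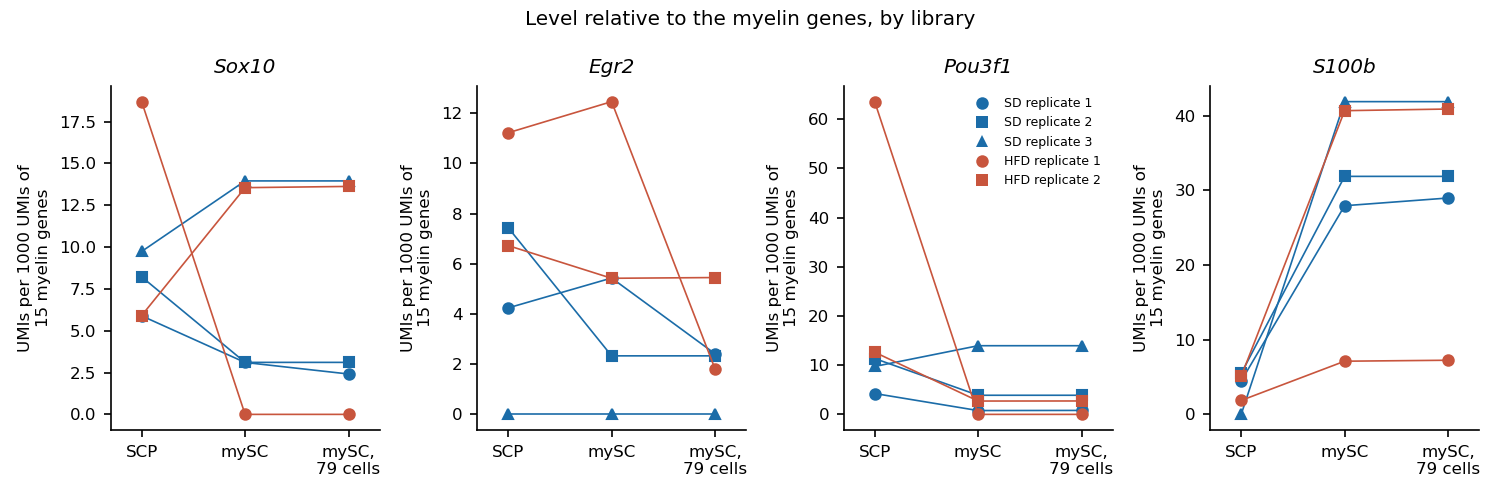
UMIs of 4 genes per 1000 UMIs of 15 myelin genes (vertical axes) in SCP, all mySC cells and the 79 mySC cells without other types' markers, by library (points joined by a line; colours are diets, shapes replicate numbers). S100b is higher in mySC than in SCP in all 5 libraries, Sox10 lines run both ways, and Egr2 is at or below its SCP value in every library in the 79 cells but not in all mySC cells.

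Stage markers were counted in the same cells from lists that hold none of the 7 genes. All 15 myelinating Schwann genes had UMIs in both classes, at 52641 ± 10505 CPM summed in SCP and 34510 ± 27866 in all mySC cells. The 79 mySC cells without other types' markers held 3664 of the 3722 mySC UMIs of this list. They held 65664 of the class's 181249 UMIs, and SCP had 13579 list UMIs among 249554. The lower mySC sum therefore does not hold for the 79 cells. At least 1% of a cell's UMIs came from this list in 58 of 60 SCP and 71 of 92 mySC cells. Of 12 neural crest and precursor genes, 6 had UMIs in SCP, at 637 ± 342 CPM summed, and the glial cadherin Cdh19 gave 123 of the 190 UMIs. Nrp2, a neuropilin, had 33 UMIs and the crest factor Foxd3 28, while Tfap2a, Tfap2b, Pax3, Sox9, Snai2 and Twist1 had 0 in SCP and in mySC. In mySC the list had 76 UMIs, of which Itga4, an integrin gene also counted in 33 macrophages, gave 30. The list was not particular to SCP. In nmSC 7 of the 12 genes had UMIs, at 629 ± 234 CPM summed (n = 4 libraries). In repairSC 4 had UMIs, 21 in all, at 1600 ± 1010 CPM (n = 3 libraries). That mean rests on shallow libraries, with 767 repairSC UMIs in the 3 cells of SD replicate 2. Pooled over libraries the list stood at 431 CPM in repairSC, 649 in nmSC and 761 in SCP.

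Immature Schwann genes were present in part. In SCP 6 of 10 had UMIs, led by the adhesion gene Nrcam (60 UMIs), the desert hedgehog gene Dhh (45) and the cadherin gene Cdh2 (32), and the sum was 727 ± 269 CPM. Ngfr, Gap43, Gfap and Fabp7 had 0 UMIs in SCP. Proliferation genes had few counts, with 13 UMIs in SCP, 12 of them from Pcna, and 0 from Mki67 and Top2a. Repair Schwann genes came to 721 ± 278 CPM in SCP, but Jun, an immediate early gene, gave 87.3% of the UMIs, and Shh, Gdnf, Bdnf and Olig1 had 0. Single genes of the precursor and immature lists were counted in many SCP cells: Cdh19 in 36 of 60 cells, Nrcam in 28 and Dhh in 24, against 38 for Sox10 and 29 for Egr2.

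Many SCP cells held more than 1 of the 3 main factors. At least 1 of Sox10, Egr2 and Pou3f1 was counted in 53 of 60 SCP cells and all 3 in 15. Sox10 and Pou3f1 shared 25 cells, Sox10 and Egr2 19, and Egr2 and Pou3f1 19. S100b was found in 21 of the 29 SCP cells with Egr2. In mySC at least 1 of the 3 factors was counted in 26 of 92 cells and all 3 in 0. Cells with more UMIs hold more of every gene, and co-detection was not corrected for that. The median depth of SCP cells with Egr2 was 4740 UMIs and that of all SCP cells 4230.

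Of the 7 genes, 2 were shared with macrophages, Egr2 and Id2, and 5 were not detectable there at this depth. Sox10, Pou3f1, Sox2, Id4 and S100b had 0 UMIs in 143 macrophages, which allows a share of up to 2.10% of cells with a UMI and, at 3 counts over the class's 582071 UMIs, 5.15 CPM. Against that floor, with UMIs pooled over libraries on both sides, SCP and mySC together were at least 51.3-fold higher for Sox10, 74.8-fold for Pou3f1 and 73.9-fold for S100b. For Id4 they were at least 10.4-fold higher and for Sox2 4.5-fold. The 15 myelin genes together had 234 UMIs in macrophages, against 13579 in SCP.

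Egr2 in macrophages was 62.7, 48.7 and 0 CPM on SD and 121 and 193 on HFD, a mean of 85.0 ± 74.2, from 67 UMIs in 34 of 143 cells (23.8%, interval 17.1 to 31.6%). All 34 cells had at least 1% of their UMIs in the macrophage list, with a lowest value of 2.02% and a median of 4.13%. Csf1r, the growth factor receptor of macrophages, was counted in 32 of them and the complement gene C1qa in all 34. The myelin list made up at most 0.307% of the UMIs of any of the 34. There were 286 Egr2 UMIs per 1000 UMIs of the myelin list in macrophages, against 5.60 in SCP and 5.10 in mySC. Free RNA was not measured from empty droplets, and its part in these counts was not tested. The cells with Egr2 were mostly deep, with a median of 7867.5 UMIs and 5 of the 34 under 1000. At 500 UMIs per cell the share was 6.27%, between the 4.45% of mySC and the 11.9% of SCP. SCP and mySC together were 2.20-fold higher than macrophages in mean CPM, a log2 ratio of 1.14. The standard deviation over libraries, with a small constant added to each count, was 1.51. It includes SD replicate 3, where both sides had 0 Egr2 UMIs and the ratio reflects depth alone. In each of the other libraries SCP and mySC together were higher. They had 206 and 307 CPM on SD, against 62.7 and 48.7 in macrophages, and 156 and 268 on HFD, against 121 and 193. The Schwann side includes the 13 mySC cells with other types' markers, and the ratio was not run without all 13. These held 92.6% and 77.7% of the mySC UMIs in HFD replicates 1 and 2. There SCP alone had 401 and 380.0 CPM, and the other mySC cells 199 and 205.

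Id2 in macrophages was 48.8, 32.4 and 0 CPM on SD and 17.9 and 324 on HFD, a mean of 84.7 ± 135. There were 60 UMIs in 16 of 143 cells (11.2%, interval 6.53 to 17.5%), and 47 of them were in 10 cells of HFD replicate 2, of which 3 cells held 35. All 16 cells passed the 1% level of the macrophage list. Per 1000 UMIs of the myelin list there were 256 Id2 UMIs in macrophages and 1.03 in SCP. Macrophages were 2.31-fold higher than SCP and mySC together, with all 92 mySC cells included. Without HFD replicate 2 the log2 ratio of the Schwann classes to macrophages changed from -1.21 to 0.10. At 500 UMIs per cell the shares were 2.95% of macrophages and 2.68% of SCP cells. Both genes were counted in 9 macrophages.

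**Figure D4:**
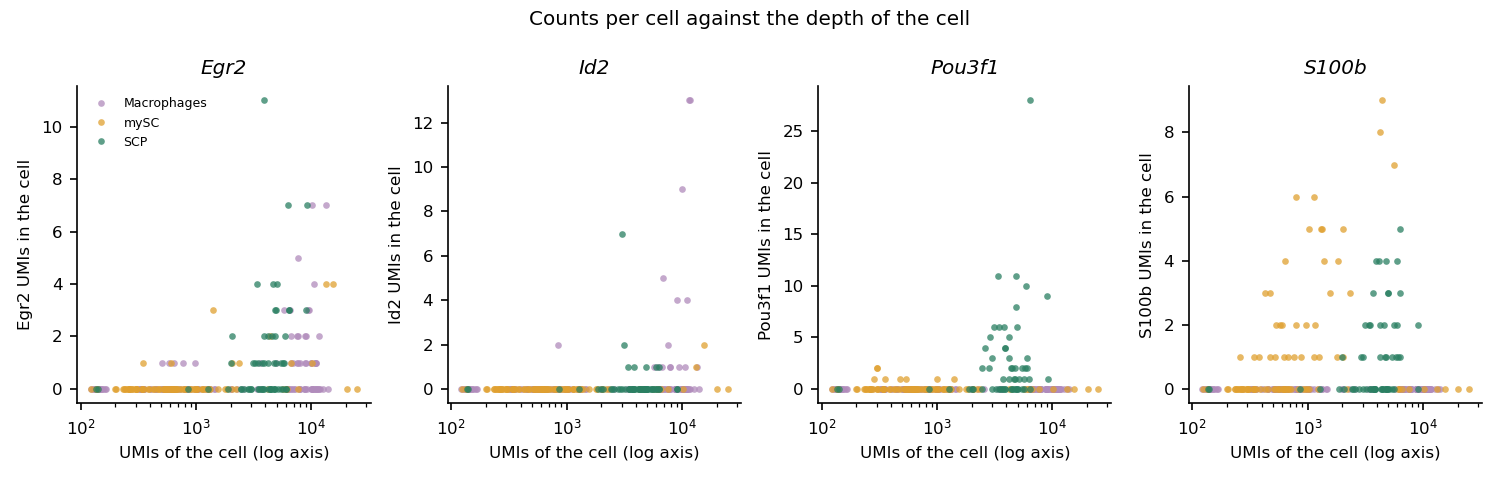
UMIs of Egr2, Id2, Pou3f1 and S100b in each cell (vertical axes) against the cell's total UMIs (horizontal log axes) for 143 macrophages, 92 mySC and 60 SCP cells (points, coloured by class). Macrophages with Egr2 or Id2 are mostly deep, with up to 7 and 13 UMIs of the gene, but 5 of 34 and 1 of 16 have under 1000 UMIs. Most Pou3f1 counts sit in SCP with 1 cell at 28, and mySC cells hold S100b at low depth.

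Relatives of the 7 genes were divided between the classes in other ways. Egr1, the immediate early relative of Egr2, had 1793 UMIs in 81 of 143 macrophages, 140 in SCP and 128 in mySC. Egr1, Fos, Jun, Egr3 and Atf3 summed to between 13577 and 21107 CPM in macrophages and between 3808 and 5308 in SCP, by library. The corepressors of the Egr factors, Nab1 and Nab2, were counted in both kinds of cell, with 7 and 13 UMIs in SCP and 24 and 18 in macrophages. Sox6 had 57 UMIs and Sox8, the close relative of Sox10, 20 in SCP, against 3 and 0 in mySC and 0 in macrophages. Id1 and Id3, the other inhibitors of the Id family, had 0 UMIs in macrophages and 8 together in SCP. Pou3f2, a POU relative that overlaps Pou3f1 in function, had 10 UMIs in SCP, 7 in mySC and 0 in macrophages. Of the S100 relatives, S100a6 had 635 UMIs in 54 of 60 SCP cells, while S100a8 and S100a9 in mySC, 1443 and 2136 UMIs, came from 3 cells.

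Other regulators of myelination were counted in both Schwann classes, but not in these alone. Of 16 myelin regulators, 13 had UMIs in SCP and 12 in mySC, against 13 in nmSC, 11 in macrophages and 9 in repairSC. Pooled over libraries the list stood at 2589 CPM in SCP and 1269 in mySC. It was 1416 in macrophages, 2894 in nmSC and 3506 in repairSC. In SCP it was led by the repressor Zeb2 (332 UMIs in 58 of 60 cells) and the Hippo pathway factor Tead1 (116 in 42 cells). Zeb2 was shared with macrophages (598 UMIs in 83 of 143 cells) and Tead1 was not (0 UMIs). Of 10 genes of neuregulin and axonal signalling, 9 had UMIs in each Schwann class; in SCP the dystroglycan gene Dag1 was counted in 50 of 60 cells, the laminin receptor gene Itga6 in 43 and the neuregulin receptor gene Erbb3 in 26. In macrophages Erbb2 and Erbb3 had 0. Among bHLH partners of the Id proteins, Tcf12 led in SCP (56 UMIs) and Tcf4 in macrophages (226). For comparison, 35.4% of all 32285 genes had a UMI in SCP, 32.5% in mySC, 37.6% in macrophages, 29.5% in nmSC and 22.4% in repairSC.

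The classes nmSC and repairSC held few counts of the 7 genes, and both carried markers of other types. In nmSC all 12 genes of a fibroblast list had UMIs, at 40966 CPM pooled, and all 10 of an endothelial list, at 2511. In repairSC 2 of 45 cells passed the 1% level of neutrophil, mast cell or haemoglobin markers and 3 that of macrophage markers. Chl1, from a list of 12 nonmyelinating Schwann genes, was counted in 37 of the 45. It alone gave 97.1% of the 659 repairSC UMIs of that list. Of the 12 genes 6 had any UMI, and Scn7a, Ngfr and Gfap had 0. In 24 nmSC cells S100b had 8 UMIs in 4 cells, Id2 2 and Egr2 1, and Sox10, Pou3f1, Sox2 and Id4 had 0. At this depth 0 UMIs allow up to 31.9 CPM and a share of 12.5% of cells. In 45 repairSC cells Egr2, Pou3f1 and Id2 had 1 UMI each and the other 4 genes 0. There 0 UMIs allow up to 61.5 CPM and 6.67% of cells. The pooled mySC level of Sox10, 88.3 CPM, is not far above these floors.

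The diets were compared on counts summed per library, to ask whether the 7 genes differed between HFD and SD in Schwann cells or macrophages. No member passed in any class. The share of all genes whose HFD and SD libraries do not overlap was not counted, so the separations named below have no background. Over all cells 5 of the 7 genes passed the filter on low counts and 0 were called (edgeR quasi-likelihood test, Benjamini-Hochberg adjusted p under 0.05), against 0.0907% of the 5510 genes tested. At an unadjusted p under 0.05 there were 2 of the 5, against 242 of all 5510 genes (4.39%), and DESeq2 also called 0. S100b was at 211, 405 and 236 normalized CPM on SD and 37.8 and 140 on HFD. The HFD libraries were the lowest, and the log2 fold change was -1.67 ± 0.64 (standard error, edgeR adjusted p = 0.943). The Schwann classes made up 40.9, 46.3 and 63.2% of all UMIs on SD and 23.8 and 41.2% on HFD. In the same fit 14 of 14 myelinating Schwann genes tested lay below 0, with a median log2 fold change of -1.26, and 14 of 15 macrophage genes above, with a median of 0.76, against 0.02 over all genes. None of these list genes was called, and the part of class composition in the S100b result was not tested. In such sums fewer cells of a type and less RNA per cell cannot be told apart. With the replicate number as a block S100b was called (-1.93, edgeR adjusted p = 0.00987). Id2 was at 38.3, 14.0 and 26.2 normalized CPM on SD and 37.8 and 200 on HFD, ranges that overlap at their edge, with a log2 fold change of 2.08 ± 0.80 (standard error; edgeR adjusted p = 0.943).

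In SCP 4 of the 7 genes could be tested and 0 were called by edgeR, as were 0% of the 1019 genes. DESeq2 called 0 as well. Without adjustment 12 genes had p under 0.05 with HFD higher and 4 with HFD lower. The HFD libraries lay above the SD libraries for Pou3f1, by a log2 fold change of 1.52 ± 0.59 (standard error; edgeR adjusted p = 1.00). Without HFD replicate 1, whose 34 UMIs lay mostly in 1 cell, it was 0.66. Sox10 differed by 0.01 ± 0.64 and Egr2 by 0.69 ± 0.65 on the log2 scale (standard errors), within the spread. S100b differed by 0.09 ± 0.77. Id2 in SCP also lay above on HFD, at 134 and 115 against at most 48.2 CPM, from 14 UMIs and without a test.

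In mySC only S100b had enough counts, and it was not called, with a log2 fold change of -2.44 ± 1.16 (standard error; edgeR adjusted p = 0.189). The background there was 7.93% of 656 genes called, 52 in all, and 1 gene without the cells carrying neutrophil, mast cell or haemoglobin markers. Called higher on HFD were 5 of 5 neutrophil genes, such as S100a9, and 4 of 5 macrophage genes, such as Lyz2. Of the glial lists, Mbp, 1 of 13 myelinating genes tested, and Lgi4, 1 of 3 axonal signalling genes, were called lower, and Zfp36l1, 1 of 3 inhibitor genes, higher. The level of S100b over all mySC cells did not overlap between diets. Without the 13 cells that carry other types' markers it did, at 1432, 1812 and 2901 CPM on SD and 796 and 1535 on HFD. The log2 fold change of S100b was then -0.60 ± 0.46 (standard error; edgeR adjusted p = 0.764), with 0 of 84 genes called, 4 at an unadjusted p under 0.05. Per 1000 myelin UMIs it overlapped too, as given above. Leaving out SD replicate 1 made S100b pass (-3.01, edgeR adjusted p = 0.0350), and without HFD replicate 1 the change was -1.65.

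In macrophages Egr2 was the member tested. Its HFD libraries, at 121 and 193 CPM, lay above the SD libraries at 62.7, 48.7 and 0. The log2 fold change was 1.46 ± 0.68 (standard error; edgeR adjusted p = 0.999), not a call, with 0.0434% of 2302 genes called. Among macrophages with at least 1000 UMIs the levels were 57.9, 55.8 and 0 CPM on SD and 116 and 194 on HFD, and the 0 is 1 cell. The 15 macrophage genes had a median log2 fold change of -0.03 in the same fit, and 0 were called. The plot of diet differences shows the 11 values tested.

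**Figure D5:**
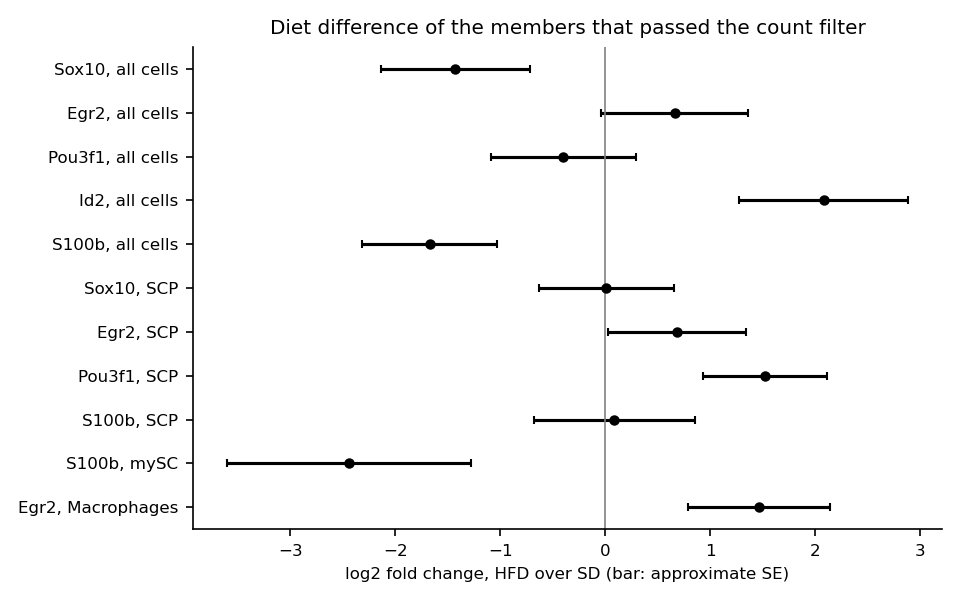
log2 fold change of HFD over SD (horizontal axis) for each gene and class that passed the filter on low counts (rows), with the approximate standard error as a bar. The largest in size are S100b in mySC at -2.44 and Id2 over all cells at 2.08, and no row passes the adjusted threshold of 0.05.

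Genes with the most similar profile were looked up over 21 sums of class and library, by Pearson correlation of log2(CPM + 50) among 3830 genes with at least 50 UMIs. The sums share libraries, depth and class definitions, so the values describe and carry no p. For Sox10 these were Lzts2 (r = 0.98), Bcas1 (0.97), Grb14 (0.97) and Arhgap19 (0.96). For Pou3f1 they were Bcas1 (0.93), Sox10 itself (0.92), Arhgef10 (0.91) and Thsd7a (0.91). For S100b they were Gmfb (0.91), Ado (0.87), Cntf (0.86), the ciliary neurotrophic factor gene of myelinating Schwann cells, and Maged1 (0.85). Egr2, split between Schwann cells and macrophages, had lower values, led by Rngtt (0.87) and Il1rap (0.85), and Id2 was led by Mdm2 (0.80) and Swap70 (0.67). Id4 was led by D430041D05Rik (0.91), Ankfn1 (0.89), Smco3 (0.85) and Dtna (0.85). Sox2, with 10 UMIs, was left out.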

How the data were processed

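The authors deposited raw UMI counts per gene and cell barcode. The submitters' processing notes name Cell Ranger 3.1.0 and the build mm10. A deposited cell table gives library, diet, class and the percent of mitochondrial UMIs, which was not used. Doublets were not called again. Cell filters applied earlier were not given in the sources used here. The deposited control libraries were taken as SD. Libraries hold 37744 to 349450 UMIs and cells 122 to 24932.

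The 7 genes, the marker lists and the tests were chosen with earlier results of these data known. Levels (CPM) are a gene's UMIs per 1000000 UMIs of a class in a library with at least 3 of its cells. Fits used edgeR 4.0.16 in R 4.3.3 (filterByExpr, TMM, robust quasi-likelihood, diet as the only term, Benjamini-Hochberg over all genes kept), and their normalized CPM are over kept genes with TMM scaling. Standard errors of fold changes are approximate. The pipeline was tested on simulated data. Thinning used the exact chance of drawing a UMI. Intervals are exact 95% Clopper-Pearson and floors are 3 counts. Neither covers more than counting error. The folder number is the first number in each library's folder name in the library key. It took 2 values, and no label says what it stands for. The scaling (RLE), the tool (DESeq2 1.42.0), the filter on low counts and a block for the replicate number were varied. So were the folder number as a term, the minimum cell numbers and the thinning depths. Libraries, cells with other types' markers or barcodes within 2 bases of a deeper one were also left out. The last exclusion, that of macrophage-marker cells, and the interaction fit were added after seeing the data. The 7 genes are always named; up to 4 genes per list by UMI number and 4 per gene by correlation are named too, and genes named at 0 were chosen after their values were seen. Coordinates are GENCODE M21, GRCm38.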

Additional observations from a re-analysis of the deposited data

Results flagged for a closer look

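Pou3f1 lay on opposite sides by diet in the 2 Schwann classes when all mySC cells were counted. In SCP both HFD libraries (2271 and 714 CPM) lay above the 3 SD libraries, and in mySC both (0 and 22.8 CPM) lay below them. In 1 fit of both classes with the library as a block, the diet difference in mySC minus that in SCP was -4.55 ± 1.71 on the log2 scale (standard error; unadjusted p = 0.0078, edgeR adjusted p = 0.423 over 1299 genes, of which 2 were called), so it did not pass the correction. Without the 13 mySC cells with other types' markers, which hold no Pou3f1 UMI, the mySC levels were 39.8, 221 and 967 CPM on SD and 0 and 102 on HFD, so the diets overlapped there. The difference in the same fit was then -3.23 ± 1.67 (standard error; unadjusted p = 0.0525, edgeR adjusted p = 0.753 over 516 genes, of which 3 were called). The mySC side rests on 10 UMIs, of which 3 lay on barcodes close to a deeper one, and the gap between the lowest SD library (23.1 CPM) and the higher HFD library (22.8 CPM) is that between 1 UMI in each. The SCP side rests on HFD replicate 1, where 1 of 3 cells held 28 of 34 UMIs.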

How the results depend on the processing

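Over all cells 5 genes differed by diet. DESeq2 called 9, no filter on low counts 47, the replicate block 64 and the folder number as a term 57. Without the cells carrying neutrophil, mast cell or haemoglobin markers 0 were called. Leaving out 1 library gave 0 to 54. In SCP the count of 0 became 2 with no filter, 2 with the replicate block and 1 with the folder number. It stayed 0 with 1 SD library left out. In mySC the count of 52 became 24 with DESeq2, 8 with no filter, 22 with the replicate block, 1 without the neutrophil, mast cell and haemoglobin cells, 13 with at least 10 cells and 0 of 84 without all 13 cells with other types' markers, and 22 to 99 with 1 library left out. In macrophages the count of 1 became 0 with DESeq2, 3 with the replicate block and 0 with the folder number. It was 0 or 1 with 1 SD library left out. RLE scaling raised the median log2 fold change of all mySC genes from 0.42 to 0.61, and the 66 calls it gave were 59 higher and 7 lower, against 45 and 7.

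Of 134 member fold changes under the alternatives, 121 kept direction and call, 2 became calls and 11 reversed. Pou3f1 over all cells turned to 0.33 with the replicate block, and ran from -0.98 to 0.21 with 1 library left out. Sox10 in SCP, near 0, turned to -0.0011 with RLE, -0.078 with no filter, -0.0034 with the folder number and -0.14 with at least 10 cells. With 1 library left out it ran from -0.36 to 0.36. S100b in SCP turned to -0.56 with the replicate block, and ran from -0.27 to 0.50 with 1 library left out. The Id2 ratio ran from -1.59 to 0.10, the latter without HFD replicate 2. The cause of these changes was not tested. Of the 77 SCP levels under the alternatives 4 moved by over 1.5 times, and of the 77 mySC levels 23. The ratio from each cell's own CPM was not run for the 5 genes with 0 macrophage UMIs. Same-numbered libraries correlated at 0.28 and -0.09 over their deviations, in 2 pairs. With 2 HFD libraries these deviations mirror each other, so the differently numbered pairs gave -0.28 and 0.09. The values therefore cannot show whether same-numbered libraries belong together. Depth limits Sox2, Id2 and Id4 in the Schwann classes.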
